A study of Sus scrofa with 10 samples.

Results

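The reelin signalling genes RELN, VLDLR, LRP8 and DAB1, 4 of the 22452 features counted, were followed by name through 28229 cells and nuclei of the pig (Sus scrofa) entorhinal cortex. The medial entorhinal cortex is the part of the temporal lobe that carries spatial and memory signals to the hippocampus. Reelin, the product of RELN, is a large glycoprotein that neurons secrete into the extracellular matrix. It binds the lipoprotein receptors VLDLR and LRP8 (also named APOER2) on neighbouring cells, and the bound receptors pass the signal on through DAB1, an adaptor that is phosphorylated inside the cell. In the fetal cortex reelin from Cajal-Retzius cells of the marginal zone guides migrating excitatory neurons to their layers. In the grown cortex interneurons and the stellate cells of entorhinal layer II are known sources.

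The 10 libraries of unique molecular identifier (UMI) counts are named as in the labels. The fetal whole cell libraries were E50_1 (3 pooled brains), E60_1, E60_2 and E60_3 (1, 1 and 2 brains) and E70_1, E70_2 and E70_3 (2, 1 and 1 brains by the labels, while the study's own sample table exchanges the numbers of E70_1 and E70_3), where E50, E60 and E70 are embryonic days. The library E70_nc held sorted nuclei of 1 brain, and Adult_1 (whole cells) and Adult_nc (nuclei) came from 1 brain each that the labels call adult. The study's text names adult sows in its methods and an earlier postnatal age elsewhere, which was not settled here. The fetuses were crossbred, of both sexes, from Danish Landrace/Yorkshire sows and Duroc boars. The labels give no treatment or genetic change in any animal, and a library of pooled brains cannot be split into animals. Since E50 and adult tissue had 1 library of each kind, a stage was tested only between the E60 and E70 whole cell libraries.

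The cells were clustered with the 4 genes left out, and a class was named from marker genes as "-like". Median UMIs per cell lay between 4251 and 9403 in the 8 whole cell libraries and were 2616 in E70_nc and 690 in Adult_nc. Cell barcodes shared between any pair of libraries made up at most 1.83% of the smaller one. E60_1 and E60_2 stood apart from the other fetal libraries. They held 0 cells in the excitatory-, intermediate progenitor-, interneuron- and Cajal-Retzius-like classes, and their summed level of 8 excitatory neuron markers was 24.8 and 10.1 CPM (UMIs among 1000000 UMIs of the cells counted) against 224 to 625 in the other fetal whole cell libraries. The same sum was 37.7 in Adult_1. It left out SLC17A6, which was also among the naming markers of the excitatory class, so neurons marked by SLC17A6 alone are not covered by it. Markers of cerebellar granule, Purkinje, photoreceptor, choroid plexus and diencephalic cells named further classes, so that not all cells of these libraries carried the marker genes of a cortical cell. In 9 clusters with 12.1% of the cells no name was supported. A level given below is the gene's share of all UMIs of a class in a library, in CPM, and its counting interval covers counting error only.

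In the Sscrofa11.1 assembly with RefSeq gene models, RELN (ENSSSCG00000015426) lies on the minus strand of chromosome 9 at chr9:103460855-103963728, with 67 exons over 503 kb. VLDLR (ENSSSCG00000005229) lies at chr1:219178501-219210332 on the minus strand and spans 31.8 kb. LRP8 (ENSSSCG00000003848) lies at chr6:158905464-158984743 on the plus strand and spans 79.3 kb. DAB1 (ENSSSCG00000003833) lies on the same strand of the same chromosome at chr6:154156595-155374403 and spans 1220 kb. In these models a protein-coding gene, LOC110261406, overlaps DAB1 on the same strand. The study states that it used the Ensembl annotation, so whether reads there were shared in the counts was not checked.

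DAB1 docks on the receptors at an Asn-Pro-x-Tyr motif in their cytoplasmic tails, and these stretches of coding sequence are shown because they are the part through which both receptors reach the same adaptor. The capitals mark the 4 codons of the motif, read 5′ to 3′ along the coding strand.
VLDLR: aattttgatAATCCTGTGTAC
LRP8: aatttcgacAACCCCGTGTAC
The VLDLR stretch is chr1:219180084-219180104 in coding exon 18 of 19, and the LRP8 stretch is chr6:158978341-158978361 in coding exon 19 of 20. Of their 21 bases 17 were identical. The motif occurred 1 time in each coding sequence, of 873 codons in VLDLR and 1069 codons in LRP8. The counts, taken near the 3′ end of transcripts, carry no information on this stretch.

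A small number of cells held much of the reelin message in most libraries. RELN had 33089 UMIs in the series, and 8714 cells (30.9%) had at least 1 of them. The 517 cells with 10 or more RELN UMIs, 1.83% of all cells, held 50.5% of these UMIs. By library such cells held from 1.12% (E60_2), 17.8% (E60_1) and 20.6% (Adult_nc) up to 72.3% (E60_3) of the RELN UMIs. Cajal-Retzius-like cells were 67 in number, 0.237% of the cells, and held 24.0% of the RELN UMIs. Granule-like cells (2.05% of the cells) held 16.2%, and excitatory-like cells (19.7% of the cells) held 10.9%. The clusters without a name (12.1% of the cells) held 13.2%, with 76 of the 517 cells of 10 or more RELN UMIs.

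**Figure D1:**
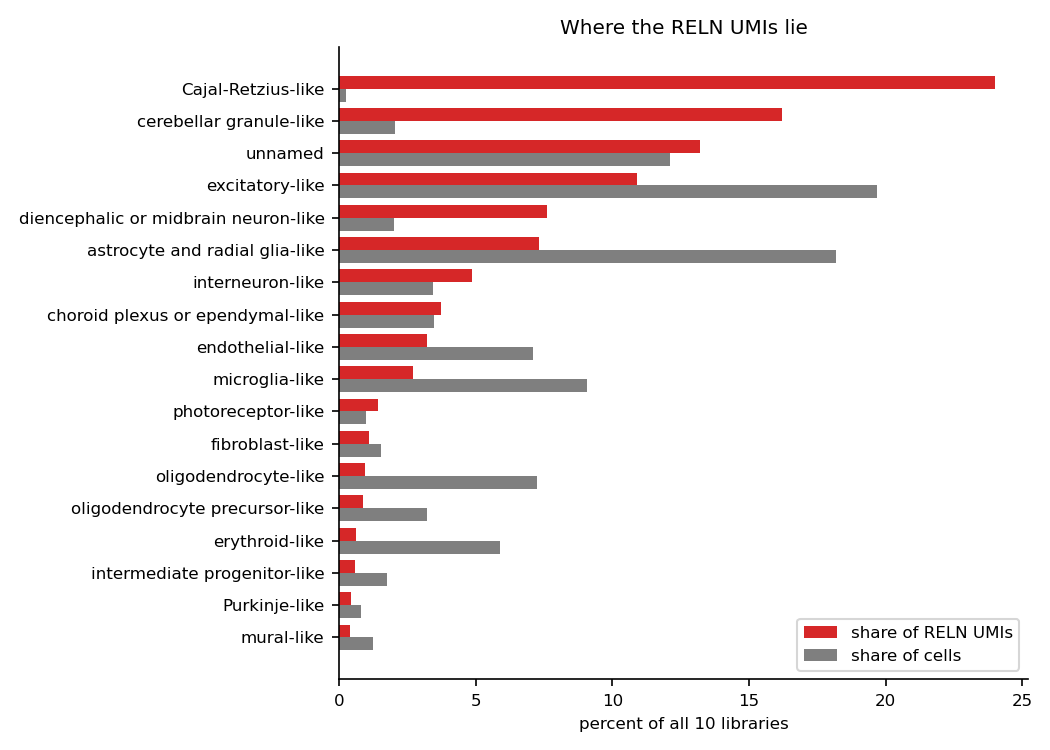
Share of all RELN UMIs (red) and share of all cells (grey) in each cell class, in percent over the 10 libraries. Cajal-Retzius-like cells hold 24.0% of the RELN UMIs with 0.237% of the cells, and excitatory-like cells hold 10.9% of the UMIs with 19.7% of the cells.

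RELN was highest in the Cajal-Retzius-like cells, the class named after the first reelin source of the cortex. Their level was 6960 CPM in E50_1 (12 cells), 3810 in E60_3 (30 cells), and 4260, 4470 and 3760 in E70_1, E70_2 and E70_3 (3, 5 and 9 cells). It was 24600 in the 5 nuclei of E70_nc, 4740 in the 1 cell of Adult_1 (95% Poisson interval 4210 to 5330) and 10500 in the 2 nuclei of Adult_nc. In these 8 libraries the class stood above each other class, whatever its number of cells, and 67 of 67 cells had a RELN UMI. RELN took no part in clustering or naming these cells. The class was named by TP73, LHX5, LHX1, CALB2, NDNF and EBF3, of which 6 of 6 reached 10 CPM, with CALB2, the calcium-binding protein calretinin, at 1720 CPM. The cells held a median of 26899 UMIs, 3.39 times their library's median, and whether some were doublets was not tested.

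Granule-like cells, named after the small excitatory neurons of the cerebellum, came next. Their RELN level was 1780 CPM in E50_1 (209 cells), 1400 in E60_1 (338 cells) and 161 in E60_2 (30 cells, interval 105 to 236). E60_2 was low and far from both others. The class held 2 clusters, and in E50_1 and E60_1 these differed from each other, with 2390 and 2120 CPM in one and 875 and 926 in the other. In E60_2 its cells lay in the second of them. Diencephalic or midbrain neuron-like cells of E50_1 were at 599 CPM (552 cells).

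Interneuron-like cells, which make the inhibitory transmitter GABA, had more RELN than excitatory-like cells, the glutamate-releasing neurons of the cortex. Their level was 459 CPM in E50_1 (25 cells), 138 in E60_3 (242 cells), and 220, 166 and 149 in E70_1, E70_2 and E70_3. It was 1300 in E70_nc (178 nuclei) and 702 in Adult_nc (49 nuclei), both above the 5 whole cell libraries. Excitatory-like cells had 41.1 CPM in E50_1, 81.5 in E60_3, 155, 129 and 59.0 in E70_1, E70_2 and E70_3, 227 in E70_nc and 175 in Adult_nc. Within each of these 7 libraries the interneuron-like cells were higher, by 0.36 to 3.45 on the log2 scale, although the ranges of the classes overlapped across libraries.

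A share of cells with a UMI has to be read against cells that are not known to make reelin, since free RNA enters every droplet. Microglia-like cells, the immune cells of the brain, were taken first for this comparison. RELN was found in 20.3, 38.7, 73.8, 69.0 and 37.6% of excitatory-like cells in E50_1, E60_3, E70_1, E70_2 and E70_3. Microglia-like cells of the same libraries had it in 13, 36.6, 80.0, 84.2 and 28%. The median UMIs of a microglia-like cell were 11334, 12075, 14188, 10664 and 9815, above the 8319, 7281.5, 9406, 10036 and 6740 of an excitatory-like cell. With each cell thinned to 1000 UMIs, the shares were 3.46, 6.98, 15.2, 13.6 and 6.06% in excitatory-like and 2.44, 2.29, 10.0, 15.8 and 2.0% in microglia-like cells. In E70_2 the excitatory-like share was thus below the microglia-like share, and in the other 4 libraries it was above it. Erythroid-like cells, also not known to make reelin, had lower thinned shares of 0.649, 0.0, 2.78, 3.23 and 0.0%. The excitatory-like share was above these in each library. The background thus depended on the class taken, and how much of the microglia-like RELN was free RNA was not tested. The thinned shares of interneuron-like cells, 24.0, 9.92, 32.8, 15.4 and 12.4%, were above the microglia-like share in 4 of these libraries and below it in E70_2. The microglia-like shares of E70_1 and E70_2 rest on 20 and 19 cells. Thinned interneuron-like nuclei had RELN in 32.6% (E70_nc) and 36.6% (Adult_nc). In Adult_nc excitatory-like nuclei had it in 12.5%, oligodendrocyte-like in 12.3%, oligodendrocyte precursor-like in 18.2% and microglia-like in 7.69% (13 nuclei). Their levels were 175, 152, 172 and 88.2 CPM, so the excitatory-like level was near that of the oligodendrocyte-like and precursor-like nuclei. In E70_nc excitatory-like nuclei had RELN in 15.1% and the 22 precursor-like nuclei thinned had it in 0.0%.

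Within the excitatory-like class single cells carried some of the RELN levels. Cluster 13 was at 37.5 CPM in E50_1, 264 in E60_3 and 45.8 in E70_3, and in E60_3 1 of its 57 cells held 174 of its 214 RELN UMIs. Cluster 25 had 207 CPM in E50_1 (44 cells, of which 1 held 39 of 66 UMIs), 252 in E70_nc (284 nuclei) and 182 in Adult_nc (75 nuclei). Only 15 excitatory-like cells held 10 or more RELN UMIs, 7 of them in E50_1, 1 in E60_3 and 7 in E70_nc. Among the interneuron-like nuclei of E70_nc, 22 of 178 did. These 22 nuclei, picked by their RELN counts and described without a test, had NDNF, a marker of neurogliaform interneurons of cortical layer 1, at 115 CPM from 12 UMIs, and the other 156 had 9.7 CPM from 4 UMIs. VIP, which marks another interneuron type, was at 0 and 102 CPM, and GAD1, which makes GABA, at 316 and 301. SST, a further interneuron marker, was also at 115 CPM from 12 UMIs in the 22 nuclei and at 50.9 in the others. LAMP5 was at 9.59 CPM (1 UMI) and 4.85, LHX6 at 38.3 and 65.5, and ADARB2 at 67.1 and 112. These markers did not place the nuclei in 1 interneuron type. The picked nuclei were also deeper, with a median of 4355 UMIs against 2136.5.

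The tests between classes used edgeR's quasi-likelihood fit on the summed counts of each class in each library, with the library as a term, and p-values adjusted over all genes tested by the Benjamini-Hochberg method. All named classes entered 1 fit. The p-values thus rest on the spread of classes over libraries, pooled over all these classes, and not on the libraries of the compared pair alone. Some libraries held more than 1 brain. RELN was higher in interneuron-like than in excitatory-like cells by 1.54 on the log2 scale (SE 0.33, adjusted p = 0.00143, n = 7 libraries), where 2.74% of all genes passed the test. The difference was no longer past the threshold without the nuclei libraries (1.19, adjusted p = 0.0588), or with each library clustered on its own (1.45, adjusted p = 0.231), and adjusted p ranged from 0.000387 to 0.231 over 17 alternatives. DAB1 was lower in interneuron-like cells by the same test, as given with its values below, and VLDLR (0.07, SE 0.33) and LRP8 (-0.56, SE 0.31) did not pass it. Hence 2 of the 4 genes passed.

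**Figure D2:**
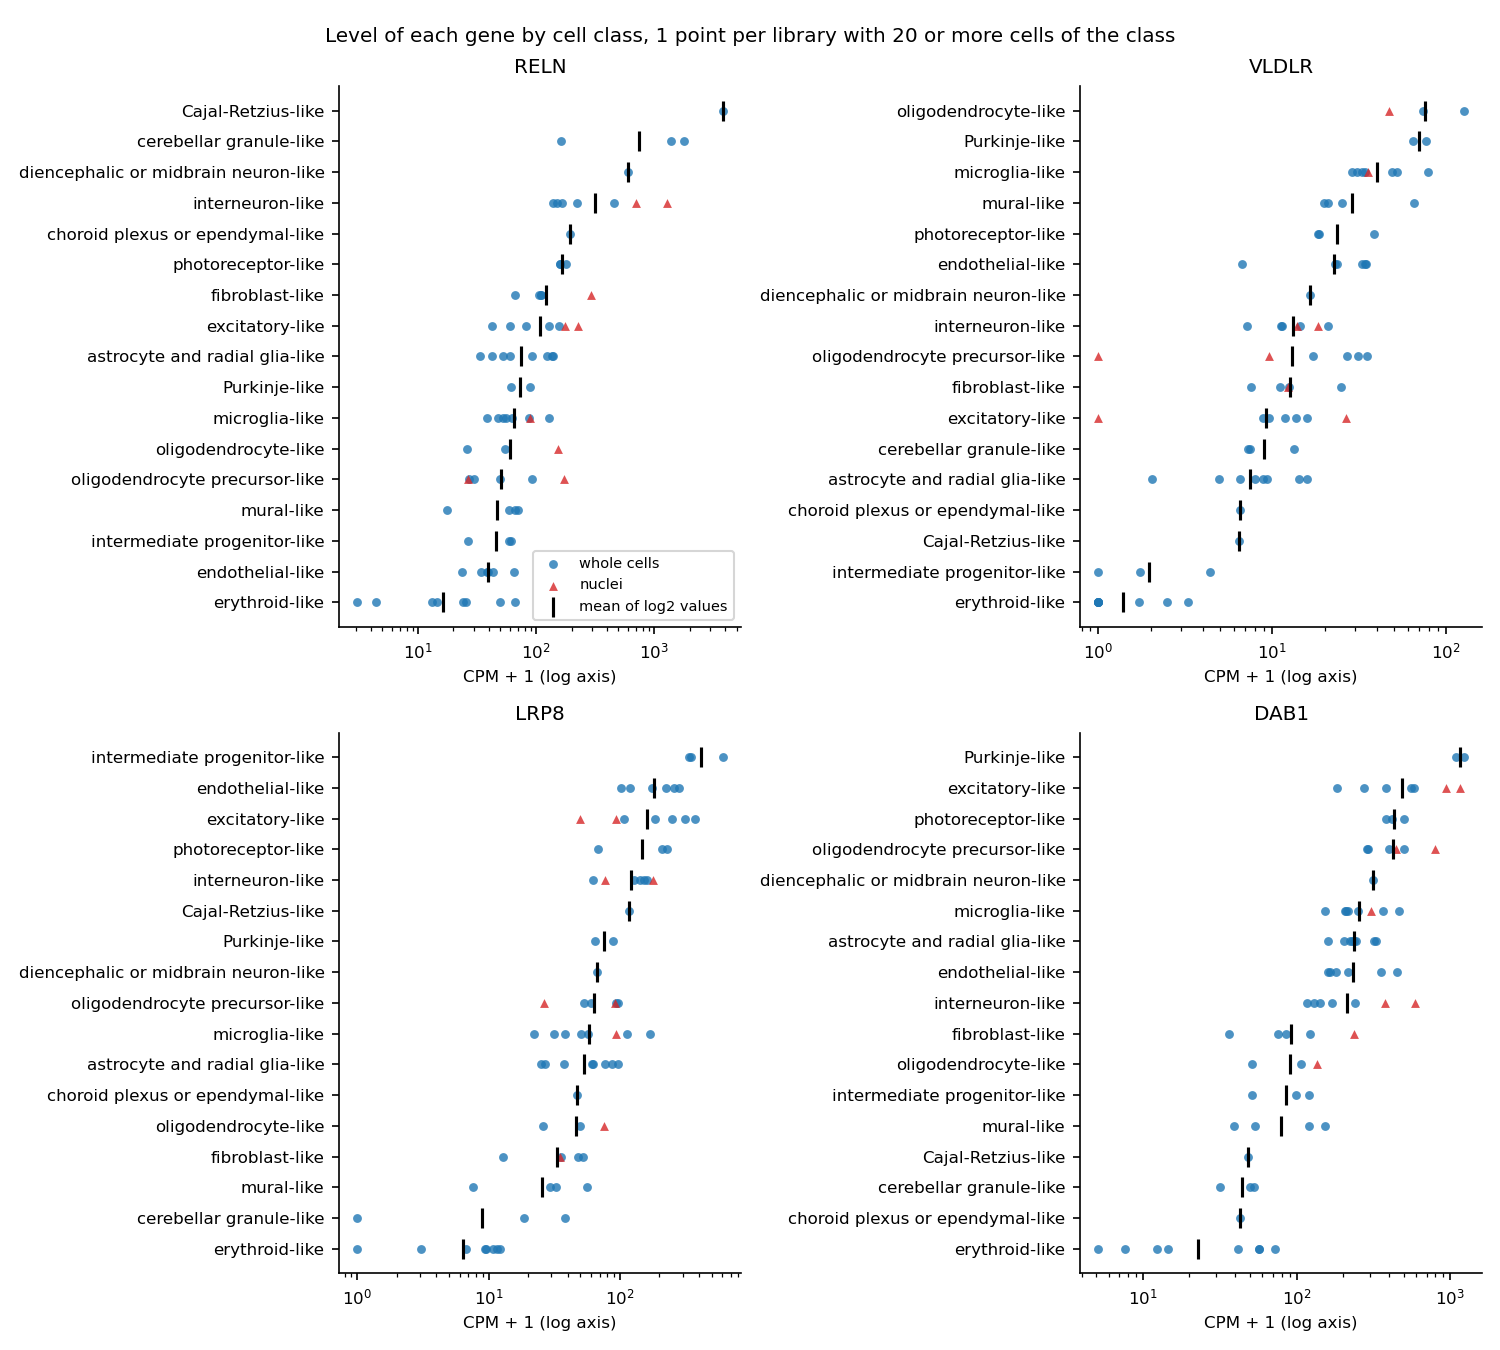
Level of RELN, VLDLR, LRP8 and DAB1 in each cell class, in CPM plus 1 on a log axis, with 1 point for each library that held 20 or more cells of the class (blue circles for whole cells, red triangles for nuclei) and a bar at the mean of the log2 values. RELN is highest in Cajal-Retzius-like, VLDLR in oligodendrocyte-like, LRP8 in intermediate progenitor-like and DAB1 in Purkinje-like cells.

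Among the other classes the mean over libraries ran down in steps from choroid plexus or ependymal-like cells, at 192 CPM in E60_1, and photoreceptor-like cells, at 158 to 180 CPM in 3 libraries, to erythroid-like cells, at 2.07 to 65.4 CPM in 8. Astrocyte and radial glia-like cells, the glial and progenitor lineage, were at 32.7 CPM in E50_1, 135, 59.5 and 51.7 in the E60 libraries, 138, 124 and 41.0 in the E70 libraries and 92.1 in Adult_1. Microglia-like cells were at 61.7 CPM in E50_1, 54.7, 51.3 and 46.9 at E60, and 127, 151 and 37.3 at E70. In both classes E70_1 and E70_2 were above E70_3, as they also were in excitatory-like cells. Against excitatory-like cells the astrocyte and radial glia-like class did not pass the test for RELN (-0.09, SE 0.32, adjusted p = 0.893), nor did the intermediate progenitor-like class (-0.41, SE 0.46, adjusted p = 0.763).

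Of the receptors, VLDLR was the sparsest in counts, with 3664 UMIs in the series. It was highest in oligodendrocyte-like cells, the myelin-forming glia, at 125 CPM in E60_1, 72.4 in Adult_1 and 45.8 in Adult_nc. Purkinje-like cells, the output neurons of the cerebellum, had 63.1 and 75.3 CPM in the 2 libraries with 20 or more of them. Microglia-like cells ranged from 27.6 to 77 CPM over the 8 libraries with 20 or more of them, and mural-like cells, which wrap the vessels, from 18.8 to 64.3 over 4. Excitatory-like cells lay lower, at 14.8 CPM in E50_1, 10.9 in E60_3, 7.78, 8.6 and 12.6 at E70, 25.4 in E70_nc and 0 in the 79 nuclei of Adult_nc, a count of 0 that allows up to 15.5 CPM (3 UMIs). In these non-neuronal classes VLDLR lay above most of the excitatory-like values, but not all classes outside the neurons were so. Astrocyte and radial glia-like cells were lower than excitatory-like cells in 5 of 5 libraries, without passing the edgeR test (-0.52, SE 0.30, adjusted p = 0.201). Choroid plexus or ependymal-like cells were at 5.54 CPM in E60_1, and erythroid-like cells at 0 to 2.27 CPM over 8 libraries.

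The progenitors of excitatory neurons had nearly no VLDLR. Intermediate progenitor-like cells, the dividing cells between radial glia and neurons, had 1 VLDLR UMI in E50_1, 5 in E60_3 and 0 in E70_3, or 0.73, 3.38 and 0 CPM, where the 0 allows up to 8.33. Excitatory-like cells of the same libraries had 14.8, 10.9 and 12.6 CPM, and the groups did not overlap. VLDLR was lower in the progenitors by 2.90 on the log2 scale (fitted -2.90, SE 0.61, adjusted p = 0.00104, n = 3 libraries with both classes), a fitted value that rests on these 6 UMIs. In this contrast 5.08% of all genes passed. Astrocyte and radial glia-like cells had more VLDLR than the progenitors (2.38, SE 0.62, adjusted p = 0.0064, 9.19% of all genes passed). Both differences missed the threshold without E50_1, at -2.45 (adjusted p = 0.0619) and 1.80 (adjusted p = 0.163).

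Oligodendrocyte precursor-like cells had more VLDLR than astrocyte and radial glia-like cells. The precursors were at 25.9, 33.8, 16.2 and 30.2 CPM in the whole cell libraries E50_1, E60_1, E60_2 and E70_3, and the astrocyte and radial glia-like cells of these libraries at 13.2, 14.8, 7.78 and 6.9. The precursors were higher in 4 of 4 libraries, and the fitted difference was 1.25 on the log2 scale (SE 0.32, adjusted p = 0.00618), where 8.06% of all genes passed. It was not past the threshold with each library clustered on its own (0.70, adjusted p = 0.411) or without E60_1 and E60_2 (1.34, adjusted p = 0.0736). In nuclei the precursors had 0 VLDLR UMIs in E70_nc (24 nuclei), which allows up to 76.6 CPM, and 8.6 CPM in Adult_nc. RELN (-0.65, SE 0.36, adjusted p = 0.327), LRP8 (0.68, SE 0.34, adjusted p = 0.247) and DAB1 (0.13, SE 0.28, adjusted p = 0.901) did not pass the test between these classes.

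LRP8, the other receptor, was highest in the intermediate progenitor-like cells, where 86.6% of 492 cells had a UMI of it. Its level there was 334 CPM in E50_1, 606 in E60_3 and 347 in E70_3. In excitatory-like cells it was 107, 310 and 183 CPM in the same libraries, 374 and 247 in E70_1 and E70_2, and 48.8 and 92.7 in the nuclei of E70_nc and Adult_nc. The progenitors were higher in 3 of 3 libraries, while the ranges overlapped across all libraries. The fitted difference was 1.23 on the log2 scale (SE 0.38, adjusted p = 0.0382). It was not past the threshold under 10 of 16 alternatives, with adjusted p between 0.0235 and 0.267.

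Astrocyte and radial glia-like cells had little LRP8 in most libraries, at 36.8 CPM in E50_1, 26.0, 23.9 and 85.7 at E60, 96.4, 60.9 and 60.7 at E70 and 75.5 in Adult_1. They were below the excitatory-like cells in each of the 5 whole cell libraries that held both classes. The difference was -1.68 on the log2 scale against excitatory-like cells (SE 0.30, adjusted p = 7.39e-06, 27.6% of all genes passed) and -2.91 against the progenitors (SE 0.36, adjusted p = 1.07e-08). It kept its direction and side of the threshold under 17 of 17 and 16 of 16 alternatives. The astrocyte and radial glia-like class held different clusters in different libraries, mainly clusters 3, 5 and 6 in E60_1 and E60_2 and clusters 12 and 22 in E60_3 and E70_3.

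Outside the neuronal lineage LRP8 was high in endothelial-like cells, the lining of the vessels, which held 26.7% of its 25364 UMIs. Their level was 223 CPM in E50_1, 258, 283 and 118 in the E60 libraries, 101 in E70_3 and 174 in Adult_1. These values overlapped those of the excitatory-like cells, and over the 3 libraries that held both, the mean difference of endothelial-like minus excitatory-like cells was -0.39 (exact permutation test, two-sided p = 0.75, smallest possible 0.25).

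DAB1, the adaptor, had 60928 UMIs and was highest in Purkinje-like cells, at 1220 and 1090 CPM, where 96.9% of 226 cells had a UMI. Excitatory-like cells came next. They were at 555 CPM in E50_1, 275 in E60_3, 183, 381 and 579 at E70, 929 in E70_nc and 1150 in Adult_nc, the nuclei above the whole cells. Interneuron-like cells of the same libraries were at 239, 116, 141, 129, 170, 377 and 587 CPM, lower in 7 of 7. The fitted difference of interneuron-like minus excitatory-like cells was -1.36 on the log2 scale (SE 0.27, adjusted p = 0.000585), and it stayed past the threshold in the same direction under 17 of 17 alternatives.

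DAB1 was also found outside the neurons. Oligodendrocyte precursor-like cells were between 285 and 792 CPM over 6 libraries. Astrocyte and radial glia-like cells were between 160 and 326 CPM over 8 libraries, and by the fit they were below excitatory-like cells (-0.78, SE 0.27, adjusted p = 0.0229). The 5 libraries with both classes were split, 2 higher and 3 lower, and 5 of 17 alternatives ended the call, with adjusted p up to 0.144. Microglia-like cells, at 153 to 462 CPM over 8 libraries, and endothelial-like cells, at 160 to 446 over 6, overlapped the astrocyte and radial glia-like range. That level was thus not particular to astrocyte and radial glia-like cells, and the part of free RNA in it was not tested. Cajal-Retzius- and granule-like cells, highest for RELN, lay near the low end of the order for DAB1. Granule-like cells were between 31.0 and 52.1 CPM. Cajal-Retzius-like cells were at 47.4 CPM in E60_3, the only library that entered the order for this class. In the libraries with fewer of these cells they were at 23.9 CPM in E50_1, 95.3, 127 and 51.3 in E70_1, E70_2 and E70_3, 40.0 in E70_nc, 116 in Adult_1 and 150 in Adult_nc. The next classes for RELN were not as low in DAB1. Diencephalic or midbrain neuron-like cells were at 311 CPM in E50_1, and interneuron-like cells between 116 and 587.

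DAB1 was low in the progenitors of excitatory neurons. Intermediate progenitor-like cells had 50.4 CPM in E50_1, 98.7 in E60_3 and 119 in E70_3, below each library's excitatory-like cells. The fit gave -2.35 on the log2 scale (SE 0.41, adjusted p = 5.01e-05), the same call under 16 of 16 alternatives. More DAB1 was found in astrocyte and radial glia-like cells than in the progenitors (1.57, SE 0.38, adjusted p = 0.00328), which was lost without E50_1 (1.34, adjusted p = 0.0694). Between progenitor- and excitatory-like cells 3 of the 4 genes passed the test, beside 5.08% of all genes, with LRP8, whose call was lost under 10 of 16 alternatives, in the opposite direction to VLDLR and DAB1. Between astrocyte and radial glia- and progenitor-like cells the same 3 passed, beside 9.19% of all genes.

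The receptor LRP8 and the adaptor DAB1 ran in nearly opposite order across clusters 20, 4, 8, 2 and 13. Cluster 20 is progenitor-like and the others are excitatory-like, in an order chosen after the values were seen and described without a test. In E60_3 LRP8 was at 606, 555, 269, 146 and 110 CPM along this order. DAB1 was at 98.7, 89.9, 179, 439 and 728 CPM. In E70_3 LRP8 was at 347, 394, 239, 160 and 84.6 CPM and DAB1 at 119, 152, 269, 685 and 833. The order was thus the same in both libraries apart from clusters 20 and 4.

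E50_1 lacked 20 or more cells of cluster 4. Its LRP8 level in clusters 20, 8, 2 and 13 was 334, 201, 111 and 81.3 CPM, and its DAB1 level 50.4, 197, 370 and 733. The median UMIs per cell rose along the same order in E60_3, from 6322, 6345 and 6967 to 9231 and 11513. With cells thinned to 1000 UMIs in E60_3, LRP8 was still found in 47.9, 41.6, 21.1, 17.1 and 5.26% of the cells of these clusters and DAB1 in 7.83, 6.68, 14.4, 28.3 and 52.6%. Another excitatory-like cluster of E50_1, number 21, which held the deep-layer neuron marker FEZF2, had LRP8 at 47.3 CPM and DAB1 at 760 CPM. Clusters outside this order did not all follow it. In E70_3 cluster 21 was below cluster 13 for both genes, with LRP8 at 81.1 and DAB1 at 548 CPM, and in E50_1 cluster 25 was above cluster 13 for both, at 116 and 770 CPM.

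**Figure D3:**
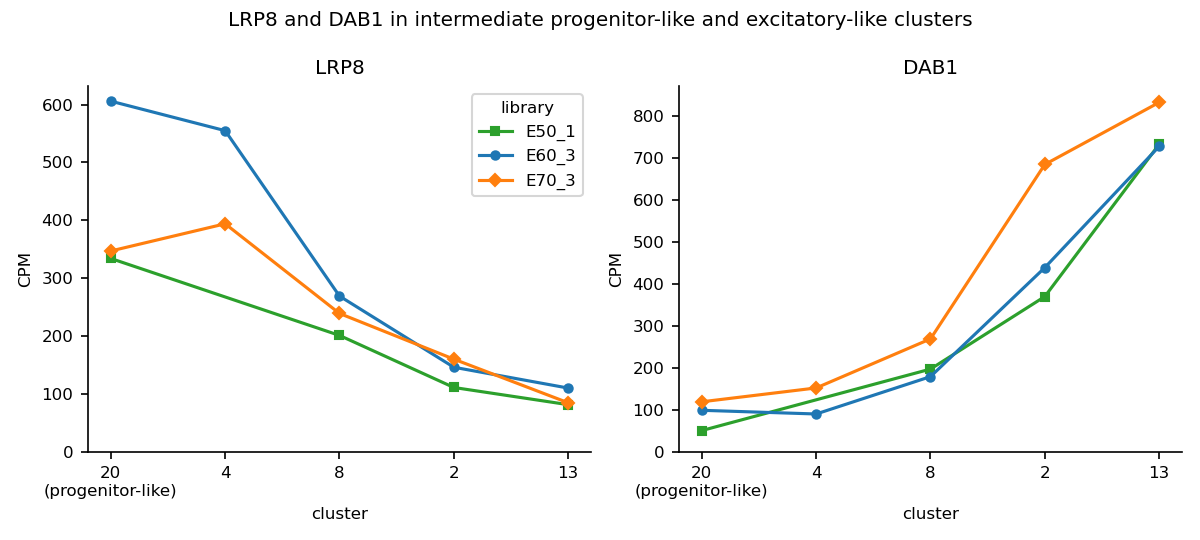
LRP8 (left) and DAB1 (right) in CPM in cluster 20 (intermediate progenitor-like) and the excitatory-like clusters 4, 8, 2 and 13, with 1 line per library. E50_1 has no point in cluster 4. LRP8 is lowest in cluster 13, at 81.3 to 110, where DAB1 is highest, at 728 to 833.

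**Figure D4:**
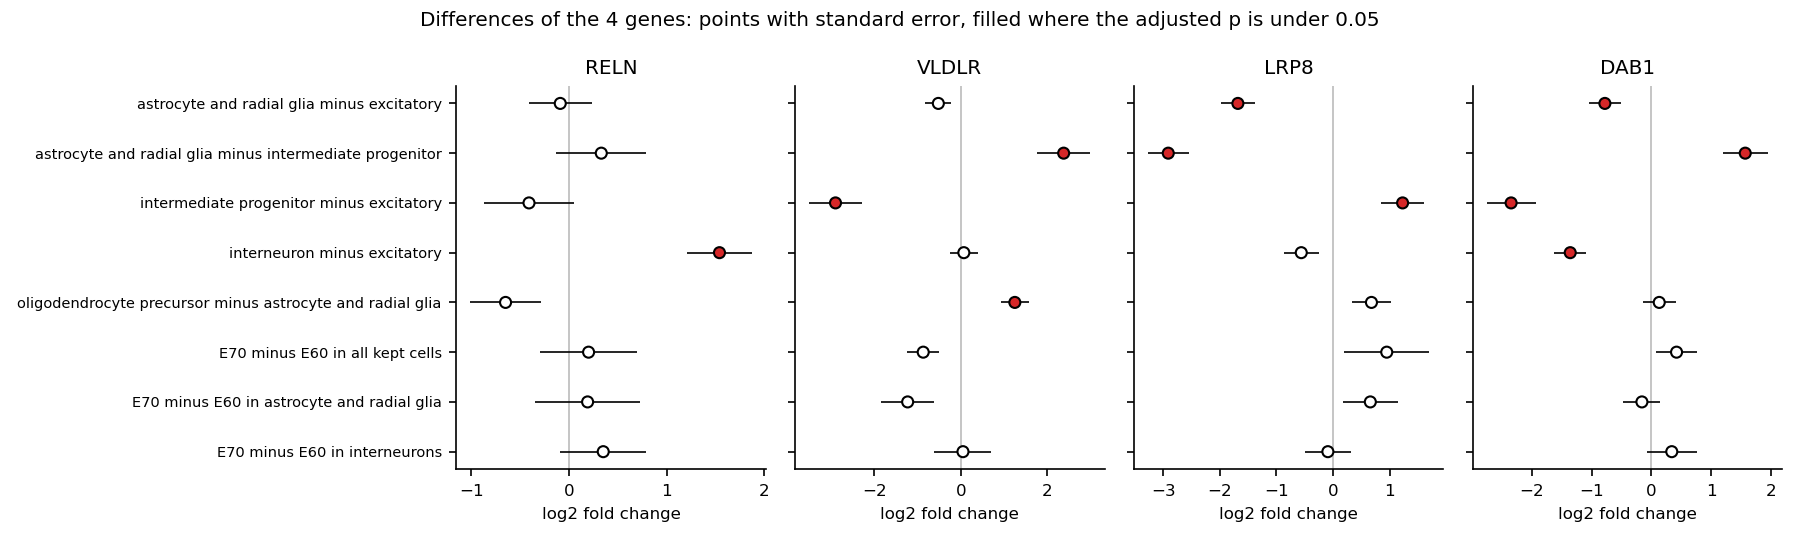
Log2 fold change with its standard error for each gene in each contrast of the edgeR fits, filled red where the adjusted p is under 0.05. The largest filled differences are LRP8 in astrocyte and radial glia minus intermediate progenitor, at -2.91, and VLDLR in intermediate progenitor minus excitatory, at -2.90, and no stage difference is filled.

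No stage difference was called for the 4 genes between the E60 and E70 whole cell libraries. In all cells without the erythroid- and vessel-related classes, LRP8 was at 36.1, 25.7 and 245 CPM in E60_1, E60_2 and E60_3 and at 277, 192 and 146 CPM in E70_1, E70_2 and E70_3. E60_3 was within the E70 range, and E60_1 and E60_2, which held no excitatory-like cells, were far below. The difference of E70 minus E60 was 0.95 on the log2 scale (SE 0.75, adjusted p = 0.406), and it turned to -0.27 without E60_1 and E60_2. Without E60_3 it was 2.46 (adjusted p = 0.0154).

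For the other genes in these cells the stage difference was 0.20 for RELN (SE 0.50), -0.87 for VLDLR (SE 0.37, adjusted p = 0.17) and 0.42 for DAB1 (SE 0.35, adjusted p = 0.433). Within a sequencing pool the direction for LRP8 differed, with -0.74 for E70_3 minus E60_3 and 2.91 for E70_1 minus E60_1. VLDLR was lower in the E70 library of both pools, by -0.08 and -1.03, and DAB1 higher, by 0.89 and 0.26. Such a sum over all these cells mixes the number of cells of each class with the level within it. E60_1 and E60_2 held 0 excitatory-like and 0 intermediate progenitor-like cells. How much of these differences came from cell numbers was not tested.

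Within astrocyte and radial glia-like cells LRP8 differed by 0.66 (SE 0.49, adjusted p = 0.445) and VLDLR by -1.23 (SE 0.61, adjusted p = 0.277) between the stages. Without E60_3 the LRP8 difference in this class was 1.38 (adjusted p = 0.0468). Within interneuron-like cells, which came from 1 E60 and 3 E70 libraries, RELN differed by 0.35 (SE 0.44) and DAB1 by 0.34 (SE 0.42), and adjusted p was 0.964 or more for each of the 4 genes. By the edgeR test 0.0% of all genes passed in each of the 3 stage contrasts. At an unadjusted p under 0.05 there were 2869 genes in the astrocyte and radial glia-like class, 214 in the interneuron-like class and 4652 in all these cells, and DESeq2 called 1018, 0 and 2482. The edgeR count rose from 0 to 1305 in astrocyte and radial glia-like cells and to 5584 in all these cells without E60_3, and to 1773, 3259 and 1450 in the 3 contrasts without E70_3, so the count of 0 depended on these libraries.

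Nuclei and whole cells of E70 differed in opposite directions for the ligand and a receptor. The nuclei came from 1 library, so these differences have no test, and the nuclei were sequenced in another pool. In interneuron-like cells RELN was at 1300 CPM in nuclei (1 library) and 149 to 220 in whole cells (3 libraries), a difference of 2.88 on the log2 scale. The 22 nuclei with 10 or more RELN UMIs held 507 of the 671 UMIs, and the other 156 were at 398 CPM. The nuclei were mostly cluster 15 (152 of 178), where RELN was at 1410 CPM in nuclei and 190, 202 and 160 in whole cells, and in cluster 26 it was at 392 (26 nuclei) and at 283, 135 and 135. DAB1 was at 377 against 129 to 170, a difference of 1.37. LRP8 was lower in nuclei, at 75.5 against 127 to 160 (-0.91), and VLDLR was within the whole cell range at 17.4 against 10.2 to 19.9.

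In excitatory-like cells LRP8 was at 48.8 CPM in nuclei against 183 to 374 in whole cells (-2.37), and DAB1 at 929 against 183 to 579 (1.44). RELN was at 227 against 59.0 to 155 (1.10) and VLDLR at 25.4 against 7.78 to 12.6 (1.34). Thus 3 of the 4 genes were above the whole cell range in excitatory-like nuclei and LRP8 below it, while the median over all genes was 0.02. A rise of more than 1 on this scale was seen in 17.0% of genes in excitatory-like and 16.8% in interneuron-like nuclei. The excitatory-like nuclei were mostly cluster 25 and the whole cells mostly clusters 4, 2, 8 and 13, so that cluster and preparation largely went together. Cluster 21 held both, with 60 nuclei and 65 whole cells of E70_3. In it RELN was at 76.8 CPM in nuclei and 27.8 in whole cells and DAB1 at 746 and 548, with counting intervals that did not overlap. LRP8, at 63.3 and 81.1 CPM, and VLDLR, at 36.2 and 18, had intervals that overlapped.

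**Figure D5:**
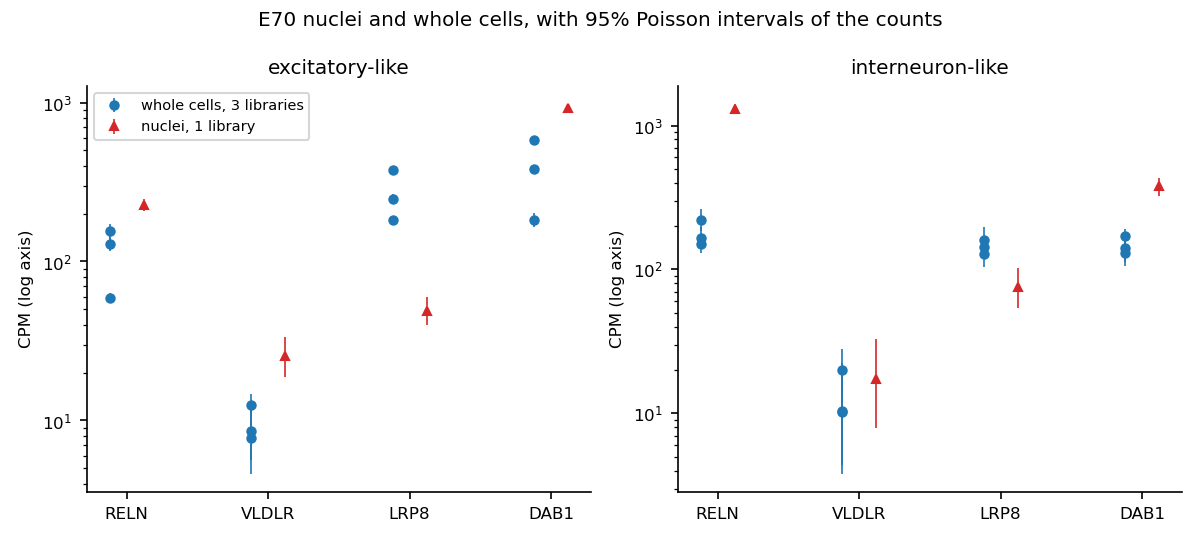
RELN, VLDLR, LRP8 and DAB1 in E70 nuclei (red triangles, 1 library) and whole cells (blue circles, 3 libraries) in CPM on a log axis, with exact Poisson 95% intervals of the counts, for excitatory-like (left) and interneuron-like cells (right). Within a gene, nuclei lie above the whole cells for RELN and DAB1 and below for LRP8.

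The genes around this pathway were taken from a list of 45 features that process the ligand, sit beside the receptors or act on DAB1, of which 44 were tested between classes. Between interneuron- and excitatory-like cells 0 were higher and 2 lower (4.55%, against 2.74% of all genes), with a list median of -0.18 and a median of -0.09 over all genes. The lower genes were NRP1, a semaphorin receptor that also joins reelin complexes (-2.43, adjusted p = 2.31e-06), and ADAMTS3, a protease that cleaves reelin (-1.73, adjusted p = 0.0012). Between intermediate progenitor- and excitatory-like cells 1 was higher and 2 lower (6.82%, against 5.08%). PLAT, the protease tPA, was higher (2.10, adjusted p = 0.00269), and NRP1 (-2.15, adjusted p = 0.00403) and the lipoprotein receptor LRP1B (-2.11, adjusted p = 0.00479) were lower.

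Between astrocyte and radial glia- and excitatory-like cells 9 were higher and 8 lower (38.6%, against 27.6% of all genes). Among ligand-processing genes PLAT (1.91) was higher and ADAMTS2 (-1.40) lower. MYLIP, a ligase that sends VLDLR and LRP8 to degradation (1.45), and LRPAP1, the chaperone of this receptor family (1.16), were higher, as was the family member LRP4 (0.93). Lower were NRP1 (-2.69), the postsynaptic scaffold DLG4 (-0.61), the actin regulator LIMK1 (-0.92) and SOCS7 (-0.64), which brings DAB1 to its ubiquitin ligase. RAP1A, a small GTPase downstream of DAB1, was higher (0.78).

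Against the progenitors, astrocyte and radial glia-like cells had 2 higher and 1 lower (6.82%, against 9.19%), with LRP1B at 1.72, LRPAP1 at 1.11 and ADAMTS2 at -1.11. Oligodendrocyte precursor-like cells had 1 higher and 5 lower than astrocyte and radial glia-like cells (13.6%, against 8.06%). LRP1B was higher (1.27), and THBS1, another ligand of these receptors (-2.07), ADAMTS3 (-1.44), EFNB1 (-1.66) and LRP4 (-1.52) were among the lower. The values in brackets are log2 fold changes of the edgeR fits with adjusted p under 0.05. Between the stages 0 of the listed genes passed, beside 0.0% of all genes.

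For each gene the classes were ranked by their mean log2 level over libraries, and 34 of 64 neighbouring pairs shared at least 2 libraries. By an exact permutation test over these libraries (two-sided) 0 pairs reached p = 0.05, and only 4 could have done so with the libraries they shared. None of the neighbours tested was thus shown to differ beyond its spread. The first ranks of LRP8 and RELN also moved with the way cells were grouped. With each library clustered on its own they went to photoreceptor-like cells for LRP8 and granule-like cells for RELN. No contrast with progenitor-like cells could be had in that setting, so whether they were overtaken or dropped out was not settled. With at least 50 cells per sum granule-like cells also came first for RELN, but the Cajal-Retzius-like class, with at most 30 cells in a library, could not enter.

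The patterns of the 4 genes over 76 sums of a class in a library were described by Pearson correlations of log2(CPM + 1), over points that share libraries and depth. LRP8 and DAB1 were the most alike pair at 0.606, followed by VLDLR and DAB1 at 0.43, VLDLR and LRP8 at 0.305, RELN and LRP8 at 0.289, RELN and DAB1 at 0.256 and RELN and VLDLR at 0.166. Among 13078 genes those most like RELN were HS3ST5 (0.802), EPHA6 (0.775), KCNC2 (0.757), TIAM1 (0.744) and SPHKAP (0.74). VLDLR was most like BIN1 (0.775), ACTB (0.747), MAN2A2 (0.746), RAP1A (0.736) and ACTR3 (0.732). For LRP8 they were TMEM150C (0.8), NUP214 (0.782), REV1 (0.775) and PIK3C2B (0.772). DAB1 was followed by EXOC6 (0.807), R3HDM1 (0.786), PPP3CA (0.774), CAMSAP2 (0.763) and MALT1 (0.757).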

How the data were processed

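Dissociated cells or sorted nuclei of the medial entorhinal cortex were run on 10x Genomics 3′ chemistry. The authors deposited UMI counts per gene and cell barcode for 10 libraries, made with Cell Ranger (version 2.20 in the submitters' processing notes) on Sscrofa11.1, with introns counted in all libraries. A correction for free RNA is not given in the sources used here. All 28229 barcodes were used as deposited, and no doublet caller was run.

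Counts were scaled to 10000 per cell, and 3000 variable genes without the 4 genes, the pathway list and the markers gave 50 principal components, which were joined between libraries by mutual nearest neighbours (k = 20). Louvain clustering (30 neighbours, resolution 1.6) gave 51 clusters. A cluster was named from markers when its mean score was at least 0.5 with a margin of 0.25 and 3 markers reached 10 CPM, which gave 42 named clusters in 17 classes.

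Counts were summed over the cells of a class in a library when there were 20 or more. edgeR 4.0.16 (R 4.3.3, TMM, quasi-likelihood test) was fitted with class and library as terms over all these sums, and for the stage over the E60 and E70 whole cell sums, with a threshold of 0.05 on the Benjamini-Hochberg adjusted p. The stage contrast for all cells left out erythroid-, endothelial-, mural- and fibroblast-like clusters. The scripts were tested on simulated counts with known changes. Alternatives were DESeq2 1.42.0, no filter on low counts, at least 50 cells per sum, each library clustered alone (192 clusters), no cells above 2 times their class median of UMIs (1876 cells), no nuclei, no E60_1 and E60_2, no library in turn, and the replicate number as a block. Leaving both E60_1 and E60_2 out of the stage fits was chosen after seeing the data.

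The members and gene lists were chosen with earlier results of these data known. The 4 genes are named throughout, and of each pathway list the 2 genes with the largest change past the threshold in a contrast, and for likeness the 5 highest correlations among genes with a mean of 5 CPM. Python 3.11.15, numpy 2.4.6, scipy 1.17.1, scikit-learn 1.9.0 and igraph 0.11.9 were used. Intervals are exact Poisson or binomial at 95%. Sequences and coordinates come from the RefSeq annotation and genome of Sscrofa11.1. The listed genes AKT1 and UBE2F were not analysed here. Of the genes these rules name, 2 are not reported here.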

Additional observations from a re-analysis of the deposited data

Results flagged for a closer look

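LRP8 differed in direction between nuclei and whole cells when interneuron-like and excitatory-like cells of a library were compared. In the 2 libraries of nuclei interneuron-like cells had more LRP8, by a mean of 0.78 on the log2 scale, and in the 5 whole cell libraries less, by a mean of -0.87. The difference between these was not tested. It was noted because each library of one preparation moved one way and each library of the other the opposite way. The 2 nuclei libraries came from different stages, E70 and adult, and from 1 brain each.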

How the results depend on the processing

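Of the differences of the 4 genes, 424 alternative values kept their direction and side of the threshold, 22 lost the threshold, 2 passed it and 20 turned. Leaving out each library in turn gave 261 to 584 genes called between interneuron- and excitatory-like cells (261 without E70_3), 304 to 1144 between intermediate progenitor- and excitatory-like (304, 538 and 343 without E50_1, E60_3 and E70_3), 3404 to 5260 between astrocyte and radial glia- and excitatory-like, 762 to 1856 between astrocyte and radial glia- and progenitor-like (784, 762 and 913 without E50_1, E60_3 and E70_3), and 875 to 1759 between oligodendrocyte precursor- and astrocyte and radial glia-like cells (875 without E50_1). The last count was 864 with each library clustered alone and 828 without E60_1 and E60_2, against 1328. For the stage the counts ran from 0 to 1773, 0 to 3259 and 0 to 5584 in astrocyte and radial glia-like, interneuron-like and all these cells, and were 1018 in the first and 2482 in the last with DESeq2. With fewer libraries fewer sums entered each fit, and the cause of the rises was not tested.

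Values that turned were all short of the threshold. VLDLR between interneuron- and excitatory-like cells was -0.05 with no filter and ran from -0.11 to 0.25 without a library (-0.03, -0.05 and -0.11 without E60_2, E70_2 and E70_3). DAB1 between precursor- and astrocyte and radial glia-like cells was -0.15 with libraries clustered alone. In astrocyte and radial glia-like cells the stage difference of RELN was -0.03 with 50 cells per sum, -0.75 with libraries clustered alone and -0.12 to 0.79 without a library, that of LRP8 was -0.23 without E60_1 and E60_2, and that of DAB1 was 0.31 with libraries clustered alone. In interneuron-like cells VLDLR was -0.03 and DAB1 -0.21 with libraries clustered alone, VLDLR ran from -0.37 to 0.20 without a library, and LRP8 was 0.27 without cells of high UMI count. In all these cells RELN was -0.23 and LRP8 -0.27 without E60_1 and E60_2, and RELN ran from -0.17 to 0.51 without a library.

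Thinning to 1000 UMIs moved the share of cells with a UMI from 46.4 to 18.5% for RELN in interneuron-like, 10.4 to 2.88% for VLDLR in oligodendrocyte precursor-like, 86.6 to 35.1% for LRP8 in progenitor-like and 71.0 to 29.7% for DAB1 in excitatory-like cells. In each setting tried, 0 neighbouring pairs in the order of the classes had an unadjusted p under 0.05 (exact permutation test). Only 2 to 4 pairs could have reached it. With so few shared libraries no pair could have passed after adjustment, so this count does not show that the order was stable. With each library clustered alone no contrast with progenitors could be had.

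With the replicate number as a block, 0 genes were called for the stage in astrocyte and radial glia-like cells and in all these cells, and LRP8 was 0.81 and 1.64. Deviations of same-numbered libraries correlated at -0.14, 0.118 and -0.044 in the first and -0.145, 0.0416 and -0.132 in the last. With so few libraries these values cannot decide whether the numbers pair them. E60_1 and E70_1 shared a sequencing pool, as did E60_3 and E70_3. In interneuron-like cells no paired analysis was possible because 1 E60 library held the class.

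Depth limits VLDLR most, with 3664 UMIs over 28229 cells. The stages rest on 3 libraries each, of which E60_1 and E60_2 differ in cell classes from E60_3, and free RNA was not removed.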
